A study of Gallus gallus with 8 samples.

Results

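Eph receptors and ephrins are a family of cell surface receptors and ligands, and 10 of their genes (EPHA3, EPHA4, EPHA5, EPHA7, EPHB2, EPHB3, EFNA2, EFNA5, EFNB1 and EFNB2) were followed through chicken eye development. They were chosen by gene name, and 9 of the 10 had a row above 0 among the 16700 rows of the table, which were 6 receptors and 3 ephrins. EFNA2 had no row under that name and was not analysed here. Whole retina was sampled at embryonic day 8 (E8), E16 and E18 and whole cornea, the non-retinal reference tissue, at E18, with 2 libraries in each of the 4 groups. All embryos came from untreated commercial Cobb/Hubbard F1 hybrid eggs incubated under normal conditions. Retinas were isolated from eyecups after a warm incubation without calcium or magnesium, and then went at once into lysis buffer. Corneas were cut away before that incubation and were frozen and powdered before lysis. Tissue and its preparation therefore cannot be told apart. Sources differ on whether the E18 retina and cornea libraries with the same number share an embryo. Whole tissue was used with no enrichment for a cell type or a retinal quadrant, so each value is an average over the tissue. In such bulk samples fewer cells of a type and less RNA per cell cannot be told apart.

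Eph receptors are receptor tyrosine kinases, and ephrins are ligands held on the membrane of the neighbouring cell, so signalling needs contact and can run into both cells. A-class ephrins hang on a lipid anchor and B-class ephrins span the membrane, and as a rule each class binds receptors of its own letter, with EPHA4 also binding B-class ephrins. The family is best known in the retina for the map that ganglion cell axons form in the optic tectum. In the chick, EPHA3 rises towards the temporal retina and A-class ephrins repel its axons in the posterior tectum, while EPHB receptors are higher in ventral and B-class ephrins in dorsal retina. In E8 retina ganglion cell axons are still growing out.

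Values are normalized counts, which are reads on a gene divided by 1 size factor per library, and each ± is a standard error from limma. Fold changes and their standard errors are on the scale of log2(normalized count + 1). Calls rest on limma, with p-values adjusted by Benjamini-Hochberg over 13194 tested genes and a threshold of 0.05. The libraries held 15662779 to 45670254 reads on genes. The family members had ample depth, and the smallest count was 110 reads, for EFNA5 in E18 retina replicate 1, where counting error alone is 9.53%. No gene lengths were used, so levels are compared between groups and not between genes. The tissues matched their labels by marker genes, since the keratin KRT12 had 256680 or more normalized counts in cornea and at most 16.7 in retina, and the summed level of 5 photoreceptor markers was 115597 to 118668 in E18 retina and 1578 to 1904 in cornea. The makeup of the retina changed with age. The summed level of 5 precursor and cell cycle markers was 62291 to 72744 at E8, 13059 to 13565 at E16 and 9691 to 10403 at E18, and that of the photoreceptor markers was 2634 to 3672, 62848 to 70367 and 115597 to 118668 at these ages. The part of this shift in the changes below was not tested.

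**Figure D1:**
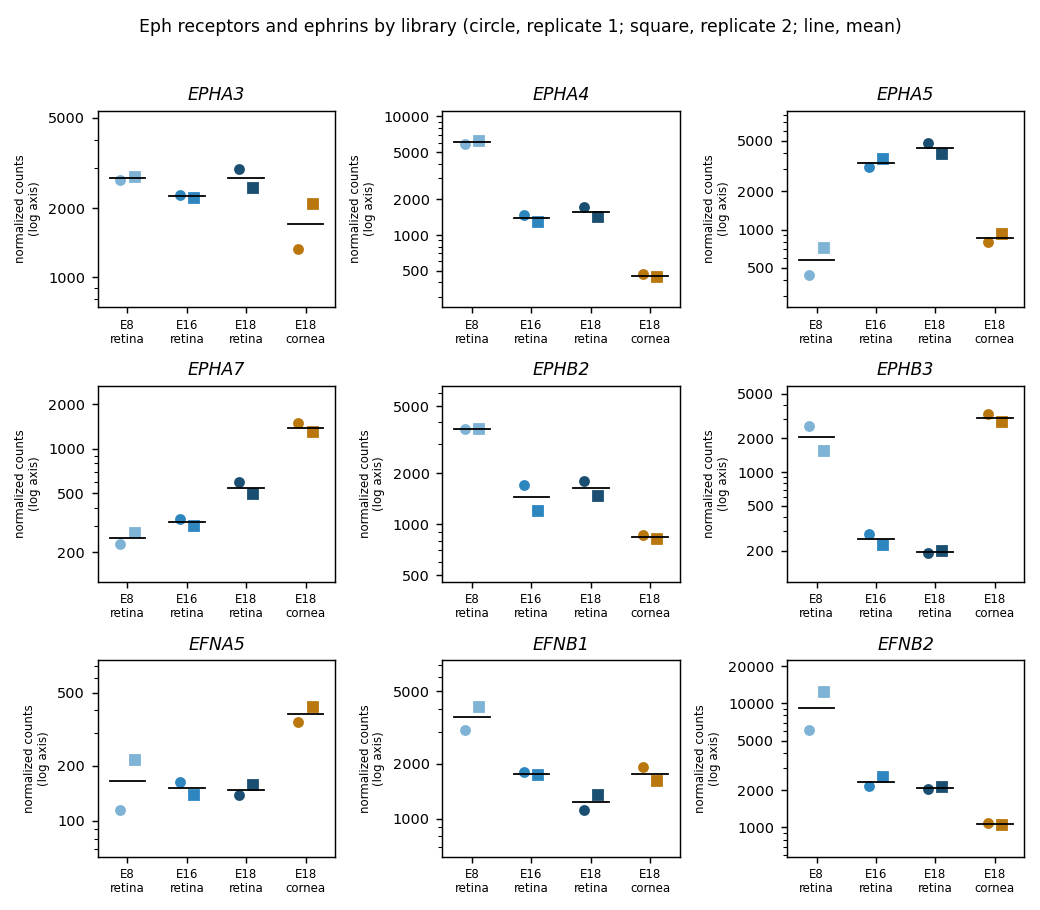
Normalized counts (log axis) of the 9 genes in each library of E8, E16 and E18 retina and E18 cornea; circles are replicate 1, squares replicate 2 and lines the mean of both. EPHA4, EPHB2, EPHB3, EFNB1 and EFNB2 stand highest among the retinas at E8, EPHA5 stands lowest at E8, and EPHA3 and EFNA5 change little with age.

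Most of these genes moved between E8 and E16, and 5 of the 9 fell. At E16, EPHB3 was 7.98-fold, EPHA4 4.36-fold, EFNB2 3.71-fold, EPHB2 2.55-fold and EFNB1 2.01-fold lower than at E8, while EPHA5 was 5.92-fold higher. EPHA3, EPHA7 and EFNA5 were not called. The 6 called genes of 9 compare with 64.4% of all genes tested that were called in this comparison, with 34.1% called higher and 30.3% called lower. The libraries of the 2 ages did not overlap for 8 of the 9 genes, beside 83.1% of all genes. All 6 calls were of 2-fold or more, as were the calls of 40.3% of all genes. The median log2 fold change of the 9 genes was -1.01, against 0.04 over all genes tested. All 6 calls were also made under each of the 19 alternatives, including each omission of a library.

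Between E16 and E18 little changed. EPHA7 alone was called, at 1.70-fold higher in E18 retina, where 18.6% of all genes were called, 10.7% higher and 7.87% lower. No call among the 9 reached 2-fold, beside 6.16% of all genes. The EPHA7 call was lost when either E16 library or either E18 retina library was left out, with adjusted p values of 0.0585 to 0.209 from limma. The median log2 fold change of the 9 genes was 0.17 and that of all genes 0.02. For 6 of the 9 genes the libraries of the 2 ages did not overlap, against 74.0% of all genes.

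Over the whole interval, from E18 against E8, 7 of the 9 genes were called, 2 higher (EPHA5 and EPHA7) and 5 lower (EPHA4, EPHB2, EPHB3, EFNB1 and EFNB2). Of all genes 66.4% were called, 35.0% higher and 31.4% lower. All 7 calls were of 2-fold or more, beside 42.4% of all genes, and 7 of the 9 had no overlap between the ages, beside 83.9% of all genes. The median log2 fold change was -1.17, against 0.04 for all genes. The 3 retinal comparisons share libraries, so their calls are not independent of each other.

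**Figure D2:**
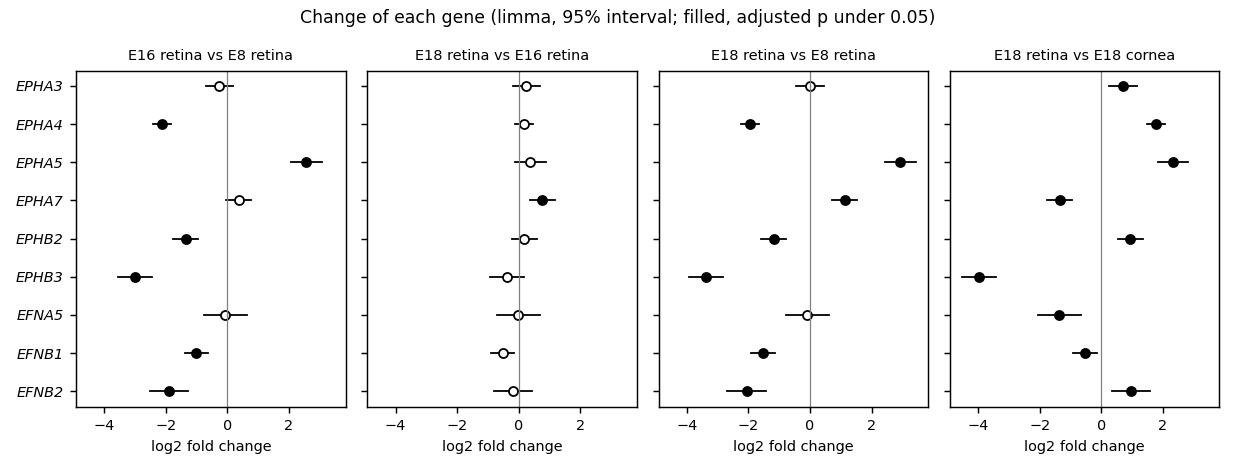
Log2 fold change of each of the 9 genes in the 4 comparisons (horizontal axis), with 95% intervals from limma; filled points have an adjusted p under 0.05. Between E16 and E18 retina only EPHA7 is filled, and between E18 retina and E18 cornea all 9 are.

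The A-class receptors did not share 1 course. EPHA3, the receptor graded along the nasal-temporal axis in chick ganglion cells, had 2675 and 2754 normalized counts at E8, 2299 and 2232 at E16 and 2972 and 2455 at E18. The E8 libraries lie inside the range of the E18 libraries, and both E16 libraries lie below all others of the retina. None of these differences was called, and the log2 fold change of E18 against E8 was -0.01 with a 95% interval of -0.46 to 0.44. In E18 cornea it had 1330 and 2082, below both E18 retina libraries, and the log2 fold change of E18 retina over cornea was 0.70 ± 0.20 (standard error; limma, adjusted p = 0.0111). The cornea libraries differed from each other by 1.57-fold, and the log2 value lay between 0.38 and 1.02 when single libraries were left out. The call was lost without E18 retina replicate 1 (adjusted p = 0.0848 from limma).

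EPHA4, a receptor that binds ephrins of both classes, was highest at E8. It had 5892 and 6175 normalized counts at E8, 1479 and 1292 at E16 and 1706 and 1423 at E18. The E8 libraries stand far above the rest, and the E16 and E18 libraries overlap. The log2 fold change of E18 against E8 was -1.95 ± 0.13 (standard error; limma, adjusted p = 3.45e-06). EPHA4 was still 3.42-fold higher in E18 retina than in cornea, where it had 465 and 445.

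EPHA5, another A-class receptor, took the opposite course. It had 443 and 715 normalized counts at E8, 3113 and 3579 at E16 and 4756 and 3943 at E18. No E8 library came near a later one, and both E18 libraries lay above both E16 libraries. E18 against E8 gave a log2 fold change of 2.94 ± 0.22 (standard error; limma, adjusted p = 5.95e-06), while E18 against E16 gave 0.38 with an interval of -0.12 to 0.88 and was not called. Cornea had 797 and 925, so E18 retina was 5.04-fold higher, and these corneal values still exceeded both E8 retina libraries.

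EPHA7, the fourth A-class receptor, was lowest in E8 retina and highest in cornea. Its normalized counts were 227 and 269 at E8, 336 and 303 at E16, 599 and 493 at E18 and 1481 and 1300 in E18 cornea. The 4 groups did not overlap at any step of this order. E18 retina was 2.19-fold higher than E8 retina (log2 fold change 1.13, adjusted p = 5.18e-04 from limma), and 2.55-fold lower than cornea.

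Both B-class receptors fell between E8 and E16. EPHB2, which is higher in ventral retina, had 3656 and 3667 normalized counts at E8, 1708 and 1202 at E16 and 1799 and 1466 at E18. Its E8 libraries are 1.00-fold apart, while the E16 libraries are 1.42-fold apart and overlap those of E18. E18 against E8 gave a log2 fold change of -1.17 ± 0.18 (standard error; limma, adjusted p = 3.98e-04). Cornea had 865 and 821, and EPHB2 was 1.93-fold higher in E18 retina.

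EPHB3, the other ventral receptor of the class, had the largest fall of the 9 genes. It had 2606 and 1557 normalized counts at E8, 281 and 226 at E16 and 189 and 196 at E18. The E8 libraries differ from each other by 1.67-fold, yet the lower of them is still above every later retina library by several-fold. E18 retina was 10.4-fold lower than E8 retina (log2 fold change -3.38, standard error 0.24), a change larger than that of 90.8% of all genes tested, and between -3.75 and -3.01 when single libraries were left out. Cornea held 3289 and 2793, above both E8 retina libraries, so that EPHB3 was 15.7-fold lower in E18 retina than in E18 cornea (adjusted p = 9.92e-07 from limma).

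Among the ligands, EFNA5, the A-class ephrin known as RAGS and a repellent of temporal retinal axons in the chick, showed no detectable change with age in whole retina. Its normalized counts were 115 and 214 at E8, 162 and 138 at E16 and 138 and 157 at E18. All 4 later libraries fall between the 2 E8 libraries, which are 1.85-fold apart. The log2 fold change of E18 against E8 was -0.09, and its 95% interval of -0.79 to 0.61 leaves room for a change of up to that size in either direction. Cornea had 345 and 416, above every retina library, and EFNA5 was 2.56-fold lower in E18 retina than in cornea (adjusted p = 0.0035 from limma).

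EFNB1, a B-class ephrin that is higher in dorsal retina, had 3080 and 4097 normalized counts at E8, 1802 and 1729 at E16 and 1115 and 1352 at E18. The 3 ages do not overlap. E18 retina was 2.89-fold lower than E8 retina (adjusted p = 6.07e-05 from limma). E18 against E16 gave a log2 fold change of -0.52 that was not called (adjusted p = 0.0621 from limma), but was called by DESeq2 on whole reads (adjusted p = 0.0406), with only the 4 libraries compared (adjusted p = 0.00776), and without E8 retina replicate 1 or 2 (adjusted p = 0.0376 and 0.0372 from limma). Cornea held 1919 and 1612 and overlapped E16 retina. EFNB1 was 1.43-fold lower in E18 retina than in cornea (adjusted p = 0.0216 from limma), a call that was lost without E18 retina replicate 1 (0.152) or E18 cornea replicate 1 (0.136).

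EFNB2, the other dorsal ephrin, had 6093 and 12328 normalized counts at E8, 2158 and 2530 at E16 and 2040 and 2112 at E18. Both E8 libraries lie well above all others, although they differ from each other by 2.02-fold, and the E16 and E18 libraries do not overlap. E18 retina was 4.17-fold lower than E8 retina (log2 fold change -2.06 ± 0.27, standard error; limma, adjusted p = 1.75e-04), with -2.57 without E8 retina replicate 1 and -1.55 without E8 retina replicate 2. E18 retina was 1.94-fold higher than cornea, which had 1092 and 1050. This tissue difference was no longer called without E18 retina replicate 2 (adjusted p = 0.0519 from limma), E18 cornea replicate 1 (0.0675) or E18 cornea replicate 2 (0.0760), although the log2 value stayed between 0.93 and 0.98.

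At each retinal age the 2 libraries differed more for these genes than for a typical gene, but in cornea they did not. The median absolute log2 difference over the 9 genes was 0.20 at E16, 0.27 at E18 and 0.21 in cornea. Over all genes tested it was 0.13, 0.12 and 0.25. Between the 2 E8 libraries it was 0.41 over the 9 genes and 0.25 over all genes tested. At E8, 1 of the 9 exceeded 2-fold, as did 7.34% of all genes. EFNB2 differed by more than 92.9% of all genes and EFNA5 by more than 90.2%, both higher in replicate 2. EPHB3 differed by more than 86.5% of all genes and was higher in replicate 1. EPHA3, EPHA4 and EPHB2 were within 1.05-fold. Among genes of neurogenesis and eye patterning some differed between these 2 libraries and others did not. ATOH7, which starts the ganglion cell program, had 10560 and 2483 normalized counts in replicates 1 and 2, and ALDH1A1, the retinoic acid synthesizing enzyme of dorsal retina, had 10028 and 6236. The dorsal factors TBX5, with 768 and 801, and TBX3, with 3088 and 3174, were close in both, as was the retinoic acid degrading enzyme CYP26A1, with 1065 and 996. These genes were picked after their values were seen. Whether these differences are linked was not tested.

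The tissue comparison at E18 separated all 9 genes. EPHA3, EPHA4, EPHA5, EPHB2 and EFNB2 were higher in E18 retina and EPHA7, EPHB3, EFNA5 and EFNB1 were lower in E18 retina than in E18 cornea. The 9 calls stand beside 71.4% of all genes called, of which 34.5% of genes tested were higher in retina and 36.9% lower. No gene of the 9 overlapped between the tissues, against 87.2% of all genes with no overlap. The median log2 fold change of the 9 genes was 0.70 and that of all genes -0.06. When a 2-fold difference was also required, 5 of the 9 calls stayed (EPHA4, EPHA5, EPHA7, EPHB3 and EFNA5), and 49.8% of all genes. The cornea libraries also held markers of blood vessel and muscle, and the tissue these came from was not tested. Of 7 blood vessel markers 6 were called lower in E18 retina than in cornea, although their summed level was 6720 to 7533 in E18 retina and 4495 to 4890 in cornea. The remaining marker, the receptor KDR, made up most of the retinal sum, with 7396 and 6614 in E18 retina and 448 and 367 in cornea. All 4 muscle markers were called lower in E18 retina, and their summed level was 127 to 136 in E18 retina and 5598 to 6962 in cornea. Their part in the tissue differences was not tested.

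**Figure D3:**
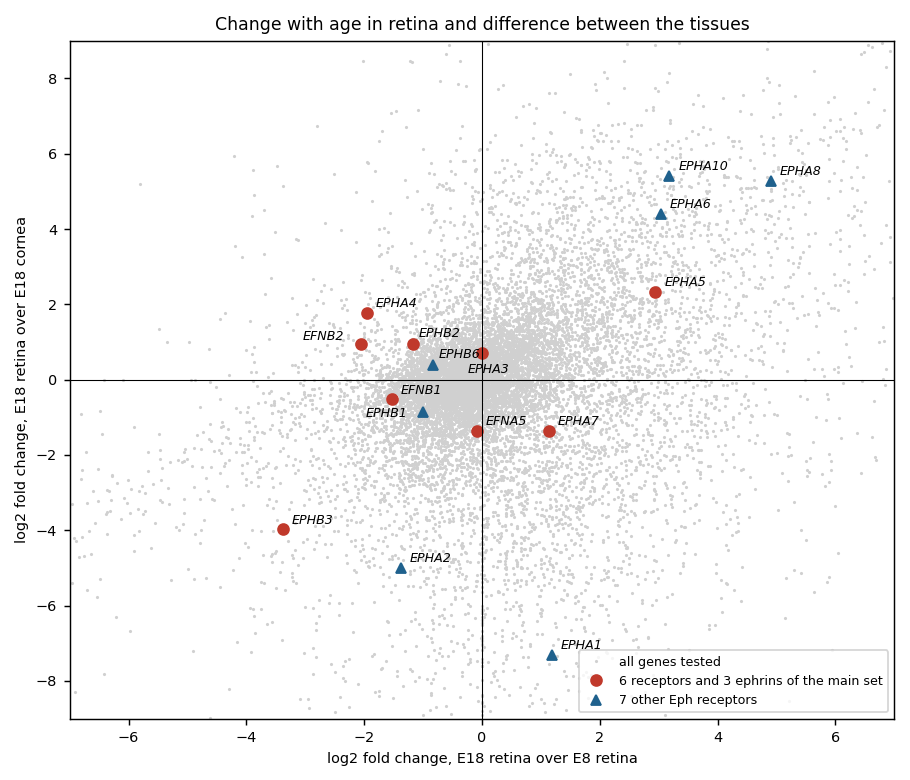
Log2 fold change of E18 over E8 retina (horizontal axis) against that of E18 retina over E18 cornea (vertical axis) for the 9 genes (circles), 7 other Eph receptors (triangles) and all genes tested (grey dots, 263 of which lie outside the axes). EPHA5, EPHA6, EPHA8 and EPHA10 stand at the upper right, and EPHB3 and EPHA2 at the lower left.

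The rest of the family was taken from a list of 13 other Eph receptors and ephrins, 7 of which had a row, all of them receptors. In E18 against E8 retina all 7 were called, 4 higher and 3 lower, beside 66.4% of all genes called. EPHA8 had 30.5 and 22.5 normalized counts at E8, 462 and 649 at E16 and 819 and 809 at E18, a log2 fold change of 4.90 for E18 against E8. EPHA6 had 55.7 and 56.8 at E8, 302 and 269 at E16 and 561 and 389 at E18 (log2 fold change 3.03). EPHA10, a receptor with an inactive kinase domain, had 68.6 and 66.6 at E8, 621 and 748 at E16 and 603 and 639 at E18 (log2 fold change 3.18). All 3 were low at E8 in both libraries and several-fold higher in every later retina library. In cornea they were low as well, with 9.22 and 41.8 for EPHA8, 9.22 and 46.7 for EPHA6 and 16.6 and 11.1 for EPHA10. For EPHA6 and EPHA8 replicate 2 of cornea was the higher one by 4.66-fold and 4.18-fold. These ratios rest on few reads in replicates 1 and 2, 5 and 38 for EPHA6 and 5 and 34 for EPHA8. The summed level of 7 ganglion cell and neuron markers was 518 and 1830 in cornea replicates 1 and 2. That of 4 Muller glia markers was 3134 and 5082, and that of 3 bipolar markers 782 and 785. For 6 amacrine and horizontal markers it was 6023 and 5617. The summed level of 5 photoreceptor markers was 1904 and 1578, of which PDE6H alone gave 1845 and 1529. The part of such marker differences in the corneal values of EPHA6 and EPHA8 was not tested.

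EPHA1 and EPHA2, receptors known from epithelia, were mainly corneal. EPHA1 had 11.3 and 8.33 normalized counts in E18 retina and 1859 and 1549 in E18 cornea, a log2 fold change of -7.31 that exceeded that of 97.4% of all genes tested. EPHA2 had 85.2 and 62.8 in E18 retina and 2876 and 1931 in cornea (log2 fold change -4.99). Within the retina EPHA1 peaked at E16 with 34.7 and 31.0, and its E8 values of 3.52 and 3.92 came from few reads. It is among the receptors called higher at E18 than at E8, on 9 and 11 reads at E18 and 6 and 4 at E8. EPHA2 fell by 1.38 on the log2 scale between E8 and E18 retina.

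EPHB1 and the kinase-inactive EPHB6 both fell in retina between E8 and E18, by 1.00 and 0.83 on the log2 scale. EPHB1 had 1671 and 1736 normalized counts at E8, 961 and 1087 at E16 and 854 and 848 at E18. EPHB6 had 2218 and 3807 at E8, 2290 and 2057 at E16 and 1663 and 1600 at E18, and its E8 and E16 libraries overlapped. With these, all 6 B-class genes with a row were called lower at E18 than at E8. Of 10 A-class genes 6 were called higher, EPHA1 among them on few reads, 2 lower and 2 were not called. Of all genes 35.0% were called higher and 31.4% lower, and this split by class was made after the values were seen. Against cornea, EPHB1 was lower in E18 retina (log2 fold change -0.85) and EPHB6 was not called (0.38, interval -0.15 to 0.91).

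**Figure D4:**
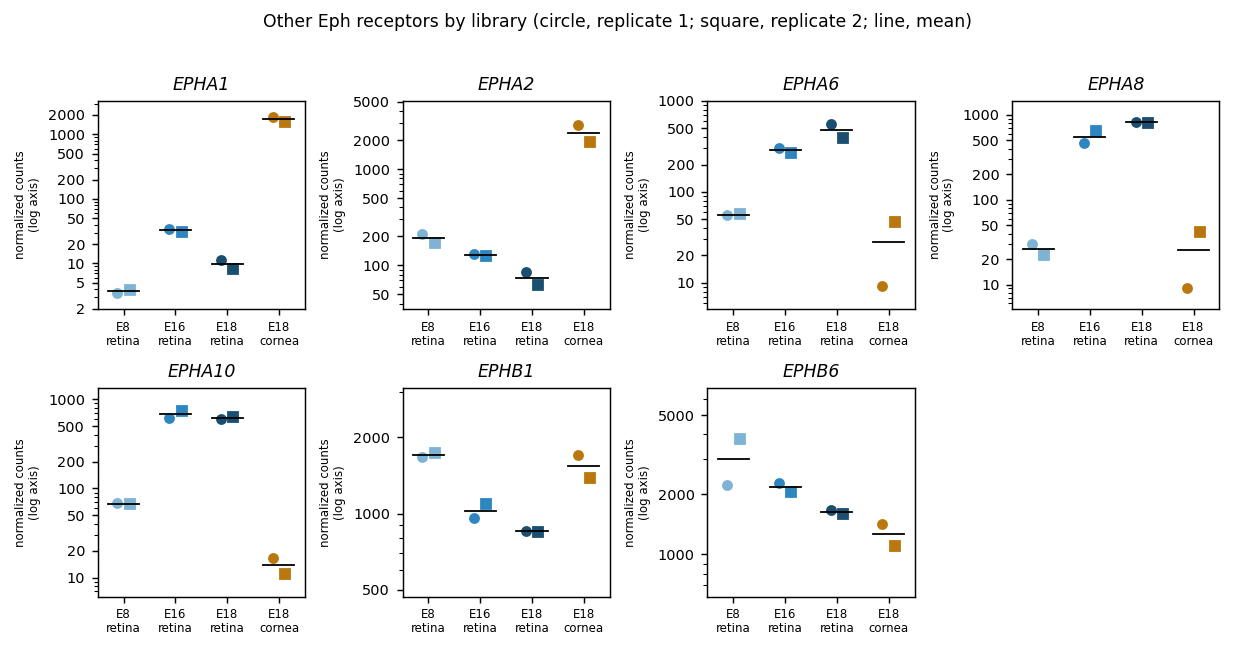
Normalized counts (log axis) of the 7 other Eph receptors in each library of E8, E16 and E18 retina and E18 cornea; circles are replicate 1, squares replicate 2 and lines the mean. EPHA6, EPHA8 and EPHA10 are low in E8 retina and in cornea, and EPHA1 and EPHA2 are highest in cornea.

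Proteins that work with Eph receptors and ephrins inside the cell were examined in a list of 37, of which 30 were tested. In E18 against E8 retina 12 were called higher and 10 lower, a share of calls near the 66.4% of all genes, with a median log2 fold change of -0.16 against 0.04 for all genes. The largest rises were PARD6A, a polarity protein (log2 fold change 2.39), and VAV3, an exchange factor that links Eph receptors to Rac (2.03). The largest falls were RGS3, whose PDZ form couples B-class ephrins to G protein signalling in mouse (-1.02), and SH2D3C, an adaptor that binds Eph receptors (-0.94). Between E18 retina and cornea 16 were called higher in retina and 6 lower, beside 71.4% of all genes called. CHN2, of the chimaerin family of Rac inactivators (3.98), and PTPRO, a phosphatase that acts on Eph receptors in the chick retina (3.49), were the most retinal, while NGEF, the exchange factor ephexin (-3.38), and SDCBP, the PDZ protein syntenin (-2.22), were the most corneal.

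Factors that set up the retinal axes were read from a list of 16, of which 14 were tested. In E18 against E8 retina 1 was called higher, 7 lower and 6 were not called, where 66.4% of all genes were called. TBX5, a transcription factor that promotes B-class ephrins in the dorsal chick retina, had 768 and 801 normalized counts at E8, 309 and 337 at E16 and 306 and 388 at E18, a log2 fold change of -1.19 for E18 against E8. It was at 0 reads in both cornea libraries, so E18 retina was at least 62.7-fold higher against a limit of 3 reads in the shallower cornea library. TBX3, another dorsal factor, had a log2 fold change of -0.88 and ALDH1A1 one of -3.51. CYP26A1, an enzyme that breaks down retinoic acid, had 1065 and 996 at E8, 180 and 208 at E16 and 67.7 and 84.0 at E18, a fall of 3.75 on the log2 scale. FOXD1, a factor of temporal retina, had 148 and 179 at E8, 5.26 and 53.1 at E16 and 10.02 and 12.1 at E18, a log2 fold change of -3.77. On the log2 scale VAX1, a factor of the ventral eye and optic stalk, had a change of -1.01, HMX1 one of -0.77 and BMP4, a dorsal signal in the early eye, one of 2.74. The BMP4 value rests on few reads at E8, 24 and 6, or 14.1 and 5.88 normalized counts, against 55.1 and 81.8 normalized counts at E18. TBX2 (-0.15), PAX2 (0.34), HMX2 (0.56), HMX3 (0.29) and CYP26C1 (-0.86) were not called. Against cornea, 8 of the 14 factors were called higher in E18 retina and 3 lower, beside 71.4% of all genes called.

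The profiles of the 9 genes over the 8 libraries were compared by the Euclidean distance between log2(normalized count + 1) values centred on each gene's mean. The closest pair was EPHA4 and EFNB2, at 1.18, and the next was EPHB2 with EFNB2, at 1.38. EPHA7 and EFNA5 were each other's nearest, at 1.62. EPHB3 stood apart, with EFNA5 nearest at 4.17 and EPHA5 farthest at 8.50. Profiles were not scaled, so distances are larger for genes that change more. The median distance to all other genes tested was 5.33 for EPHB3 and 2.24 for EPHA3. Among all other named genes tested, the nearest were ST8SIA1 for EPHA4 (0.58), FLT1 for EPHA5 (0.44), CERK for EPHA3 (0.30), ZDHHC23 for EPHA7 (0.35), PHAX for EPHB2 (0.41), FBXL22 for EPHB3 (0.74), IRF2BP2 for EFNA5 (0.47), SAV1 for EFNB1 (0.30) and PFN4 for EFNB2 (0.53). FBXL22 had only 3.15 and 3.27 normalized counts at E16 and 2.51 and 2.27 at E18 retina, so its distance rests on few reads there. All these distances describe likeness over 4 groups of 2 libraries.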

How the data were processed

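Poly(A) RNA of 8 libraries was sequenced as paired reads from stranded libraries. The authors mapped them on the galGal4 build (STAR), summed them by gene (featureCounts) and divided the counts by DESeq2 size factors, so the deposited values are a normalized signal per gene. The annotation release and the use of strand in counting are not given in the sources used here, so overlapping genes are uncertain. Within each library all values are whole multiples of 1 step (100% within 0.01 of a whole number), and whole reads were recovered. Since the unit is normalized, limma 3.58.1 in R 4.3.3 gave the main results on log2(value + 1), with 1 term per group over 8 libraries, eBayes with trend, and genes kept by filterByExpr (minimum count 10). The count tests of edgeR 4.0.16 and DESeq2 1.42.0 on whole reads were alternatives, beside other scalings, filters, pseudocounts, libraries and thinned reads. Genes were chosen, and the lists written, with earlier results of these data known. Named were all members and other family genes with a row, the 2 largest called rises and falls of the partners in E18 against E8 retina and against cornea, axis factors tested (some genes that the rule names are not reported here), genes from the top of the marker lists (the first 2 tested of each), and the nearest profile. PDE6H was also named, for its share of a summed level. All 16 family genes with a row matched symbols of GRCg7b. Replicates were biological duplicates. The limma p-values of the main results rest on 1 estimate of spread per gene, shared by all groups and moderated over all genes tested. The study's tables differ on whether E18 retina and cornea share embryos, and replicate numbers were not used as pairs. Correlations of replicate differences between groups ran from -0.05 to 0.05, with 0.053 for E18 retina and E18 cornea. Each group gives 1 such difference per gene, so these correlations cannot show whether embryos were shared. No sequence was used here.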

Additional observations from a re-analysis of the deposited data

How the results depend on the processing

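Over the 9 genes, 4 comparisons and 19 alternatives, 654 of 684 log2 fold changes kept their direction and side of the threshold, 15 lost their call, 5 gained one and 10 changed sign, all 10 of them values that were not called. EFNA5 changed sign when libraries were left out, with a range of -0.51 to 0.38 for E16 against E8, -0.135 to 0.0929 for E18 against E16 and -0.53 to 0.36 for E18 against E8 retina. EPHA3 in E18 against E8 ranged from -0.15 to 0.13 in the same way and was 0.0673 with reads thinned to the smallest library. EPHB2 in E18 against E16 ranged from -0.0728 to 0.43. The number of the 9 genes called in E18 against E16 retina was 2 by DESeq2, 3 with only the 4 libraries compared, 0 when a 2-fold difference was also required, and 0 to 2 when libraries were left out. The share of all genes called in that comparison was 18.6% in the main results, 20.7% by edgeR, 23% by DESeq2, 45.7% with only the 4 libraries compared, 6.16% with the fold requirement and 0.67% to 23.1% with a library left out. In E18 retina against cornea the fold requirement left 5 of the 9. Of the 7 other receptors, E18 against E16 retina gave 1 call in the main results, 2 by edgeR, 2 by DESeq2, 5 with only the 4 libraries compared and 0 to 1 with libraries left out. Of the signalling partners, the fold requirement left 8 (E16 against E8), 1 (E18 against E16), 7 (E18 against E8) and 14 (E18 retina against cornea), the fit of 4 libraries called 17 in E18 against E16, and leaving out libraries gave 10 to 19, 0 to 12 and 14 to 24 in the 3 retinal comparisons. The cause of these moves was not tested, except that a fold requirement can only remove calls. Of all genes the fold requirement left 40.3% (E16 against E8), 6.16% (E18 against E16), 42.4% (E18 against E8) and 49.8% (E18 retina against cornea). The partner counts are out of 30 tested. With the replicate number as a block, calls among the 7 other receptors in E18 against E16 retina came to 2, and no call among the 9 genes changed. Scaling by TMM moved the median log2 fold change of all genes in E18 retina against cornea to -0.13, compared with -0.06, and left every call and direction of the 9 genes in place. With 2 libraries in each group, small changes such as those between E16 and E18 are near the limit of what can be called.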
